A study of Mus musculus with 16 samples.

Results

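The cytosolic ribosomal protein genes were chosen by name from the deposited count table. A gene was taken when its symbol was Rpl or Rps with a number and at most 1 further letter, and Rplp0, Rplp1, Rplp2 and Rpsa were added. Names of pseudogenes and of ribosomal S6 kinases were left out. The rule found 80 of the 39179 genes in the table, 31 for the small subunit and 49 for the large subunit with its stalk. Of these, 78 were among the 15021 genes that passed the expression filter. The other 2 were Rpl10l, with 0 counts in every library, and Rpl39l, with 0 to 13 counts a library, both paralogs of a ribosomal protein gene.

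NOD.LT mice, a line of the non-obese diabetic mouse, gave splenic B cells at 15 weeks of age, after 5 weeks on a diet. Of the 4 diets, NP is read here as the one with no resistant starch added. The others were HAMS (high-amylose maize starch), HAMSA (the same starch carrying acetate) and HAMSB (the same starch carrying butyrate). Each diet had 4 stranded poly(A) libraries, NP 1, 3, 4 and 5, HAMS 1, 4, 5 and 6, HAMSA 1, 2, 3 and 6, and HAMSB 1, 2, 5 and 6. The cells were isolated by negative selection, so spleen cells that the antibodies miss remain in the libraries, and the labels do not tie libraries to animals. The series text gives 4 samples a diet and also speaks of triplicates, so the 4 libraries of a diet may not be 4 animals. All p-values thus rest on the spread among libraries only. The question for these genes was whether their transcripts differ between the diets.

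Ribosomal proteins are built into the small subunit, which decodes the messenger RNA, and the large subunit, which joins amino acids. Cells make them in matched amounts, and their mRNAs are among the most abundant of most cells. Many of these mRNAs begin with a cytosine and a run of pyrimidines, the TOP motif, through which the kinase complex mTORC1 and the RNA-binding protein Larp1 control their translation. Resting B cells keep few ribosomes and make more when they are activated.

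The starts of 6 members are printed because these members are named in the results below. The letters were not compared with the fold changes or other results. Rps2 is the member that passed the test, Rpl38 and Rpl31 are among those with the smallest p, Rpl37a varied most, and Rps15 and Rpl26 moved most closely with the other members. Each sequence runs 5′ to 3′ from 30 bases before to 20 bases from the start that RefSeq annotates on GRCm38.p6. Capitals mark the ETS core CGGAAG or CTTCCG, the YY1 core AAGATGG or CCATCTT, the Sp1 core GGGCGG or CCGCCC, or a run of at least 8 pyrimidines that opens with C. The windows are chr17:24720033-24720082 (Rps2, plus strand), chr11:114668550-114668599 (Rpl38, plus strand), chr1:39367821-39367870 (Rpl31, plus strand), chr1:72711230-72711279 (Rpl37a, plus strand), chr10:80292401-80292450 (Rps15, plus strand) and chr11:68901536-68901585 (Rpl26, plus strand).
Rps2: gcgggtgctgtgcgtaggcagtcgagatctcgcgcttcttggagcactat
Rpl38: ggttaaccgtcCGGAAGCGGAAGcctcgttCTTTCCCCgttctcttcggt
Rpl31: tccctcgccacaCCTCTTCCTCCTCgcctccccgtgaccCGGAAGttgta
Rpl37a: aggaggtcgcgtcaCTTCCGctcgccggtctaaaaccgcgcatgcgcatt
Rps15: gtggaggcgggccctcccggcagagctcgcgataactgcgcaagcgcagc
Rpl26: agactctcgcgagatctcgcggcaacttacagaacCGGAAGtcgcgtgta
Rpl38 holds 2 ETS cores and a pyrimidine run that opens at the annotated start, whereas Rps2 and Rps15 hold none of the searched letters in these 50 bases.

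RefSeq windows from 250 bases before to 50 bases after a start were matched by symbol for 60 of the 80 members. An ETS core on either strand lay in the window of 68.3% of these 60 members and of 18.8% of all 27025 genes with a window. The Sp1 core lay in 60.0% of the members against 38.2% of all genes, and the YY1 core in 15.0% against 7.28%. A C with at least 4 further pyrimidines at the annotated start, or 1 base before it, was found in 26.7% of the members and 5.2% of all genes. A run of at least 8 pyrimidines opening with C lay between 20 bases before and 30 bases after the start in 53.3% against 17%. The ETS and Sp1 letters can overlap each other and the pyrimidine runs, and a match describes letters and no bound factor.

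Gene counts summed to 15053965 to 30723337 in the HAMSA libraries and 31707731 to 46206200 in those of the other diets, and 422906 to 1306746 of them fell on the members. The B cell markers checked were high in every library, with Pax5 at 267 to 483 CPM. CPM are counts scaled to library size, with TMM factors except for Pax5, Cd3e and Alas2 here. Markers of other cells were present too. The T cell gene Cd3e ranged from 0.491 to 20.7 CPM and the erythroid gene Alas2 from 0.390 to 210 CPM. HAMSB 5 stood apart from all other libraries before any diet was compared. It had the largest share of unmapped reads, 10.2% (3.56% to 8.52% elsewhere), the smallest share of reads that mapped to several places, 11.4% (14.7% to 21.2% elsewhere), and the largest share outside annotated exons, 16.9% (9.76% to 16.4% elsewhere). In bulk RNA, fewer cells of a type and less RNA per cell cannot be told apart.

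The row named Rpl24 went against its label. Its identifier, ENSMUSG00000022601, belongs to Zbtb11 (chr16:55973883-56008913, plus strand) in GENCODE M21, and the identifier of Rpl24 stands in another row, written RPL24, with 18 to 112 counts a library. Of the 80 rows, 79 also met the rule by the M21 name of their identifier, and 3 rows met it by that name alone (RPL24, Rps4y2 and Gm5428, which M21 names Rpl24, Rps4l and Rpl6l). With the 80 tested rows chosen by identifier, the medians of the 6 comparisons ran from -0.31 to 0.43 on the log2 scale, and their signs were those of the rows chosen by name. The row named Rpl24 is kept below as the rule took it and is called by that phrase.

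Levels per length differed widely between members, with Rps15 highest and Rpl3l lowest among those tested. Per kilobase of annotated exon, the mean over 16 libraries was 1917 CPM for Rps15 of the small subunit, 1410 CPM for the stalk protein gene Rplp1 and 1041 CPM for Rpl8. It was 8.37 CPM for Rps6, the substrate of the S6 kinases, 8.69 CPM for Rpl5 and 14.8 CPM for Rpl11, whose proteins bind 5S rRNA and Mdm2, and 7.62 CPM for Rpl3. Rpl3l, the striated muscle paralog of Rpl3, had 0.306 CPM per kilobase. Other members taken for their roles lay between these values: Rpsa, also known as the laminin receptor, 338 CPM, Rplp0 and Rplp2 of the stalk 718 and 173 CPM, and Rps14 and Rps19, genes lost or mutated in human anaemias, 571 and 71.3 CPM. Rps4x had 790 CPM, Rpl13a, Rpl22 and Rpl39 had 796, 127 and 215 CPM, and Rps27l, the paralog of Rps27, had 36.9 CPM, each per kilobase.

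The counts left out reads that mapped to several places, and the members carry many near-identical copies. In 25 of the 80 members, over 50% of the 50-base words of their coding transcripts also occur in a transcript of another gene in GENCODE M21. That share was 85.4% for Rpl5, 84.6% for Rps6 and 67.1% for Rpl3, against 30.3% for Rps15 and 6.3% for Rpl8. Across the 78 members the Spearman correlation between this share and the level per kilobase was -0.19, and -0.36 with words of 100 bases, as a description over genes that share libraries and copies. Rows named as pseudogenes of ribosomal protein genes (222 rows) took 0.402% to 1.29% of the counts of a library. Exons of another gene lay on the same strand in 27 members, for Rps2 those of the small nucleolar RNA gene Snora64. How far lost reads lowered each member was not tested.

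The members took 2.28% to 4.29% of the gene counts in 15 libraries and 1.35% in HAMSB 5. Their share was 2.61%, 2.54%, 2.50% and 2.97% in NP 1, 3, 4 and 5, a mean of 2.66% ± 0.216 (SD, n = 4). In HAMS 1, 4, 5 and 6 it was 3.45%, 3.59%, 2.28% and 2.35%, a mean of 2.92% ± 0.700 (SD, n = 4). HAMS thus split into a pair of libraries above every NP library and a pair below every NP library. In HAMSA 1, 2, 3 and 6 the share was 2.69%, 4.29%, 3.91% and 2.61%, a mean of 3.38% ± 0.852 (SD, n = 4), and in HAMSB 1, 2, 5 and 6 it was 2.76%, 3.08%, 1.35% and 2.49%, a mean of 2.42% ± 0.753 (SD, n = 4). The ranges of all 4 diets overlapped. Counting error was at most 0.00979 percentage points either way (Wilson 95% interval), far under the spread within the starch diets.

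**Figure D1:**
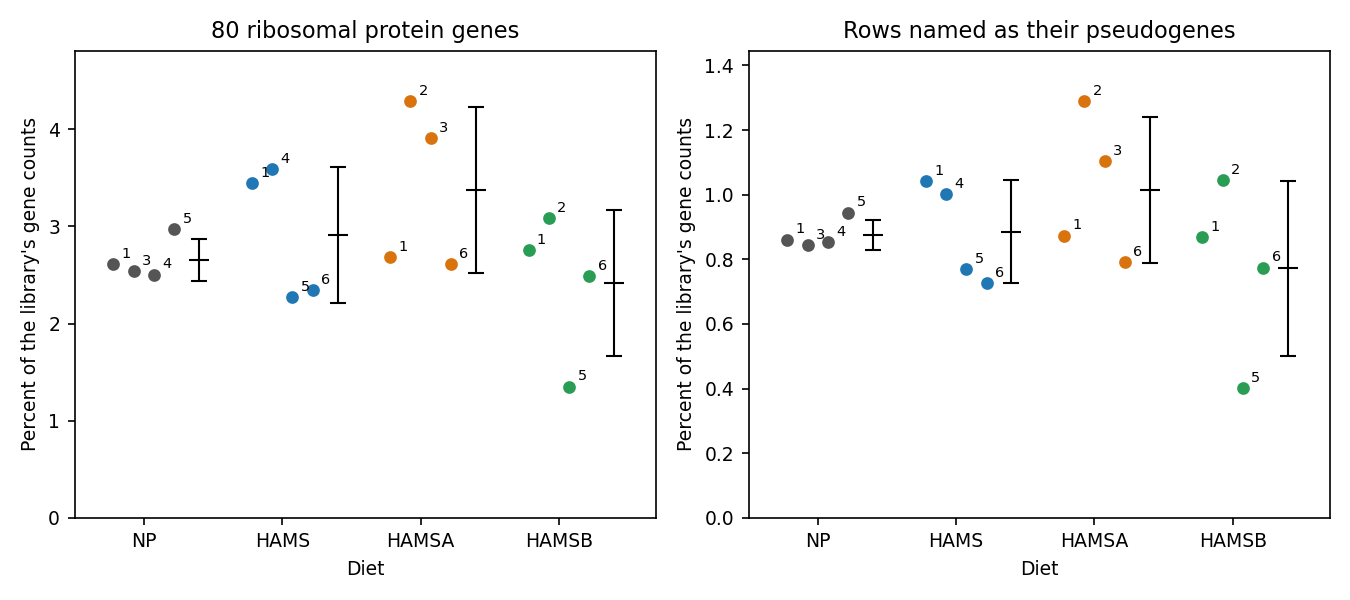
Percent of each library's gene counts in the 80 ribosomal protein genes (left) and in rows named as their pseudogenes (right), by diet. Points are libraries with their label number, and bars beside them are the mean and SD of 4 libraries. The libraries of HAMS and HAMSA form a high and a low pair, and HAMSB 5 lies lowest at 1.35% and 0.402%.

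Small and large subunit genes kept close to the same ratio while their sum varied. The small over the large subunit share was 0.997 to 1.04 in 14 libraries, 0.943 in HAMSB 5 and 1.07 in HAMSA 2. The ratio of pseudogene counts to member counts ran from 0.279 in HAMS 4 to 0.341 in NP 4. The rows named as pseudogenes were thus high and low in nearly the same libraries as the members.

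The same few libraries held the extremes of most members. HAMSB 5 was the lowest of the 16 libraries for 56 of the 78 tested members. HAMSA 2 was the highest for 36 members, HAMS 4 for 14 and HAMSA 3 for 13. The share of reads outside annotated exons differed among these libraries. It was 9.76% in HAMSA 2, 11.2% in HAMSA 3 and 11.2% in HAMS 4, against 16.9% in HAMSB 5. In HAMS 5 and HAMSB 6 it was 16.4% and 15.7%, and the members took 2.28% and 2.49% of the counts. In HAMSA 1 and 6 it was 12.02% and 12.1%, and the members took 2.69% and 2.61%. All 4 HAMSA libraries lay below every NP and HAMSB library in this share, so that fits with it in the model cannot fully tell it apart from the diet. The share of reads mapping to several places was 21.2% in HAMSA 2, 20.9% in HAMS 4, 19.98% in HAMS 1 and 11.4% in HAMSB 5, and its part in the result was not tested.

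**Figure D2:**
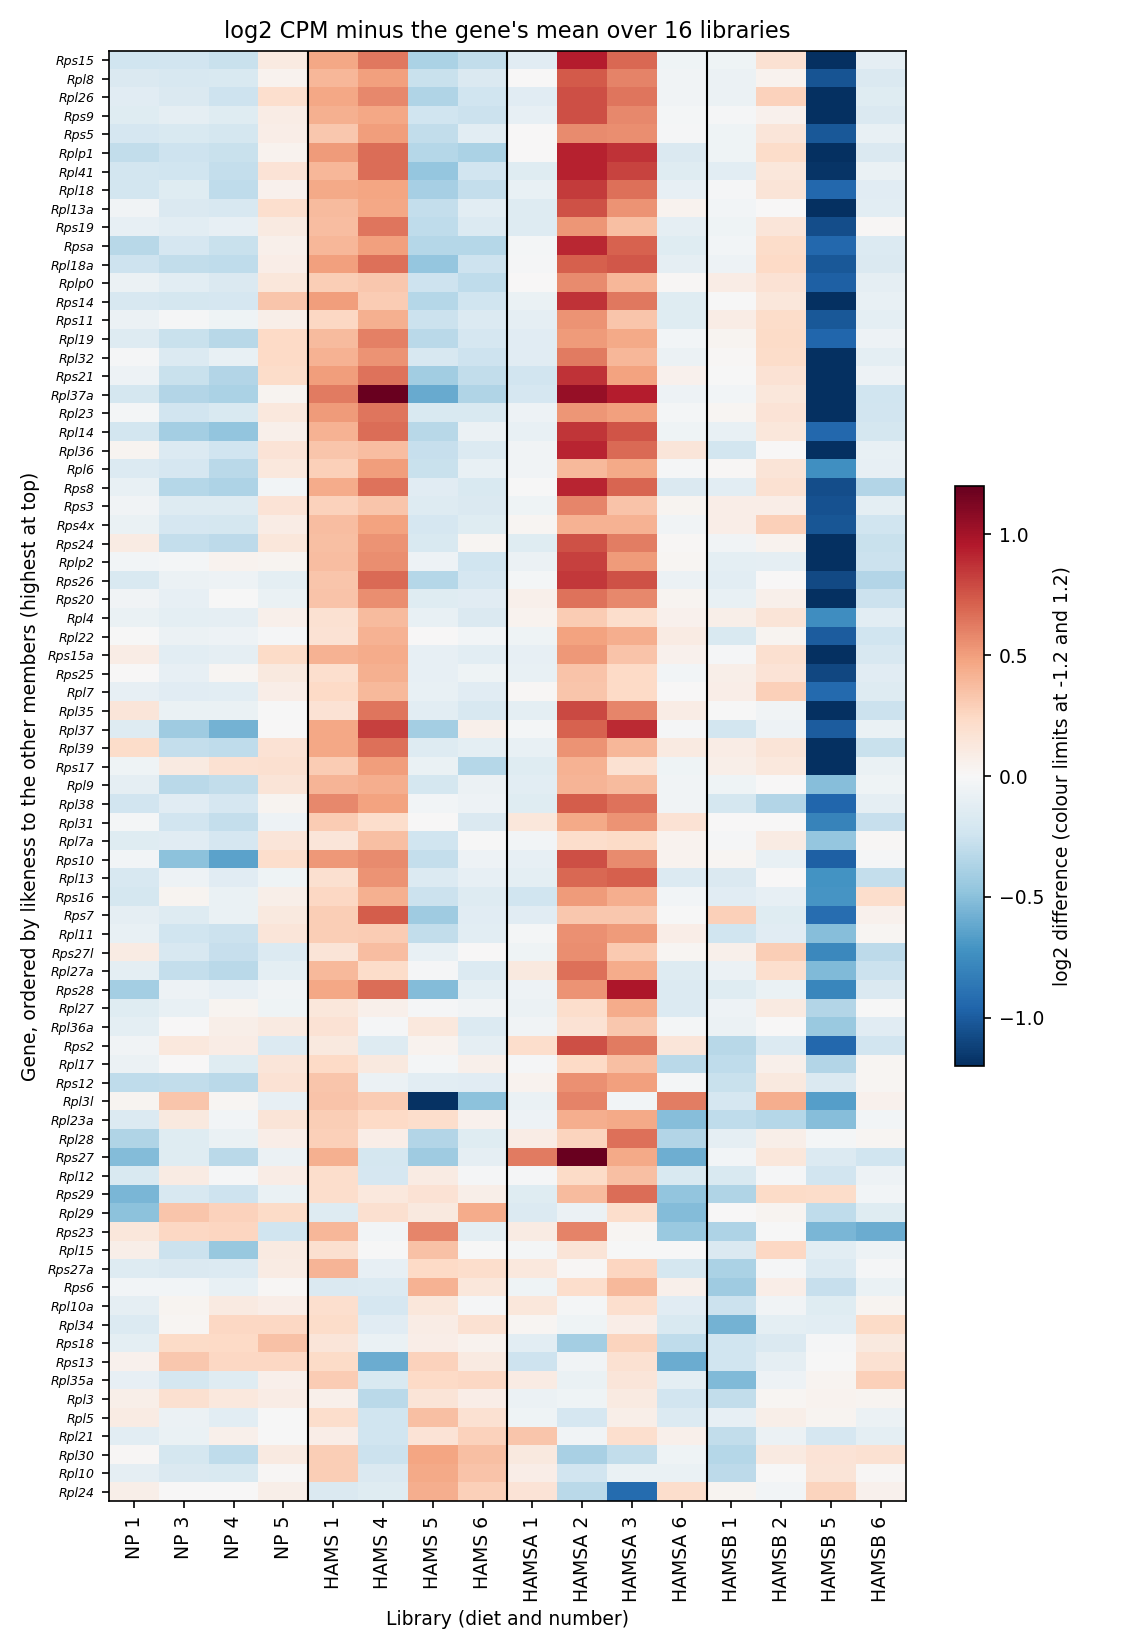
The log2 CPM of the 78 tested members minus each gene's mean over the 16 libraries, with red above and blue below the mean. Genes are ordered by their likeness to the other members. HAMS 1, HAMS 4, HAMSA 2 and HAMSA 3 are high and HAMSB 5 low in the upper part of the map, and the genes at the bottom do not share these columns.

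Differences between diets were tested with edgeR's quasi-likelihood F-test over all genes, with Benjamini-Hochberg adjustment and a threshold of 0.05. Rps2 passed in HAMSA against HAMSB and in the test for any difference among the 4 diets, and no other member passed in any comparison. In the test for any difference, 1 of 78 members passed, against 3.78% of all genes tested, and 11 had an unadjusted p under 0.05, against 22% of all genes. The members' shares, 1.28% and 14.1%, lay below the background at both thresholds.

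Rps2, a small subunit protein at the entry of the mRNA channel, was higher with acetylated than with butyrylated starch. Its level was 450, 660, 596 and 430 CPM in HAMSA 1, 2, 3 and 6, and 308, 347, 202 and 330 CPM in HAMSB 1, 2, 5 and 6. Every HAMSA library lay above every HAMSB library, and also above every HAMS and NP library. HAMS 1, 4, 5 and 6 had 421, 349, 399 and 359 CPM, and NP 1, 3, 4 and 5 had 376, 424, 413 and 346 CPM. The log2 fold change of Rps2 in HAMSA against HAMSB was 0.85 (SE 0.165; edgeR adjusted p = 0.0266), a 1.80-fold difference between means of 534 ± 112 and 297 ± 65.1 CPM (SD, n = 4 each). In the test for any difference its edgeR adjusted p was 0.0354.

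The call of Rps2 rested on several libraries. It was lost in HAMSA against HAMSB without HAMSA 2 (edgeR adjusted p = 0.108), HAMSA 3 (0.0794), HAMSB 1 (0.0666), HAMSB 5 (0.0804) or HAMSB 6 (0.0735), while its log2 fold change stayed between 0.70 and 0.94 in all 8 omissions. It was also lost when the outside-exon read share entered the model (log2 fold change 0.64, edgeR adjusted p = 0.463). It was lost as well with only the HAMSA and HAMSB libraries fitted (0.84, edgeR adjusted p = 0.221), among libraries numbered 1 to 4 (0.81, adjusted p = 0.112) and among those numbered 5 and 6 (0.69, adjusted p = 0.420). The call in the test for any difference was lost in 9 of 16 omissions: NP 3, NP 4, NP 5, HAMS 4, HAMS 6, HAMSA 2, HAMSA 3, HAMSB 1 and HAMSB 6. HAMSA 2 had 6570 CPM of summed erythroid markers and HAMSA 6 had 6377 CPM, against 101 to 1694 CPM in the other 14 libraries. Rps2 was 660 CPM in the first and 430 CPM in the second. The part of these cells was not tested.

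In HAMSA against HAMSB most members had higher estimates, and libraries overlapped in most of them. Of 78, 70 had a log2 fold change above 0 and 8 below, with a median of 0.43 (a fold of 1.34), against -0.0040 over all 15021 genes. Besides the 1 member that passed (background 0.779% of all genes), 32 had an unadjusted p under 0.05, all higher, against 19.4% of all genes in either direction. Libraries did not overlap in 5 members, against 8.81% of all genes: Rps2, Rplp2, Rpl37, Rpl31 and Rpl21, each higher in HAMSA. DESeq2 called Rps2, Rpl22, Rpl38 and Rpl31 in this comparison, 4 of the 78 members against 3.99% of all genes. Without HAMSB 5 the median was 0.26 and 12 members had an unadjusted p under 0.05, against 10.9% of all genes. With HAMSA 2 left out the corresponding values were 0.30, 11 members and 10.8%, and with HAMSA 3 left out 0.38, 10 members and 13%. With the outside-exon read share in the model the median was -0.048.

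Rpl31, a large subunit protein beside the peptide exit tunnel, had the second smallest p of all members in HAMSA against HAMSB, after Rps2. It had 16.04, 19.99, 21.2 and 16.5 CPM in HAMSA 1, 2, 3 and 6 and 14.7, 14.6, 8.36 and 12.04 CPM in HAMSB 1, 2, 5 and 6. The groups did not overlap, with a log2 fold change of 0.57 (SE 0.168; edgeR adjusted p = 0.126). The row named Rpl24, the Zbtb11 identifier, had the lowest log2 fold change, -0.23 (SE 0.195; edgeR adjusted p = 0.486).

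**Figure D3:**
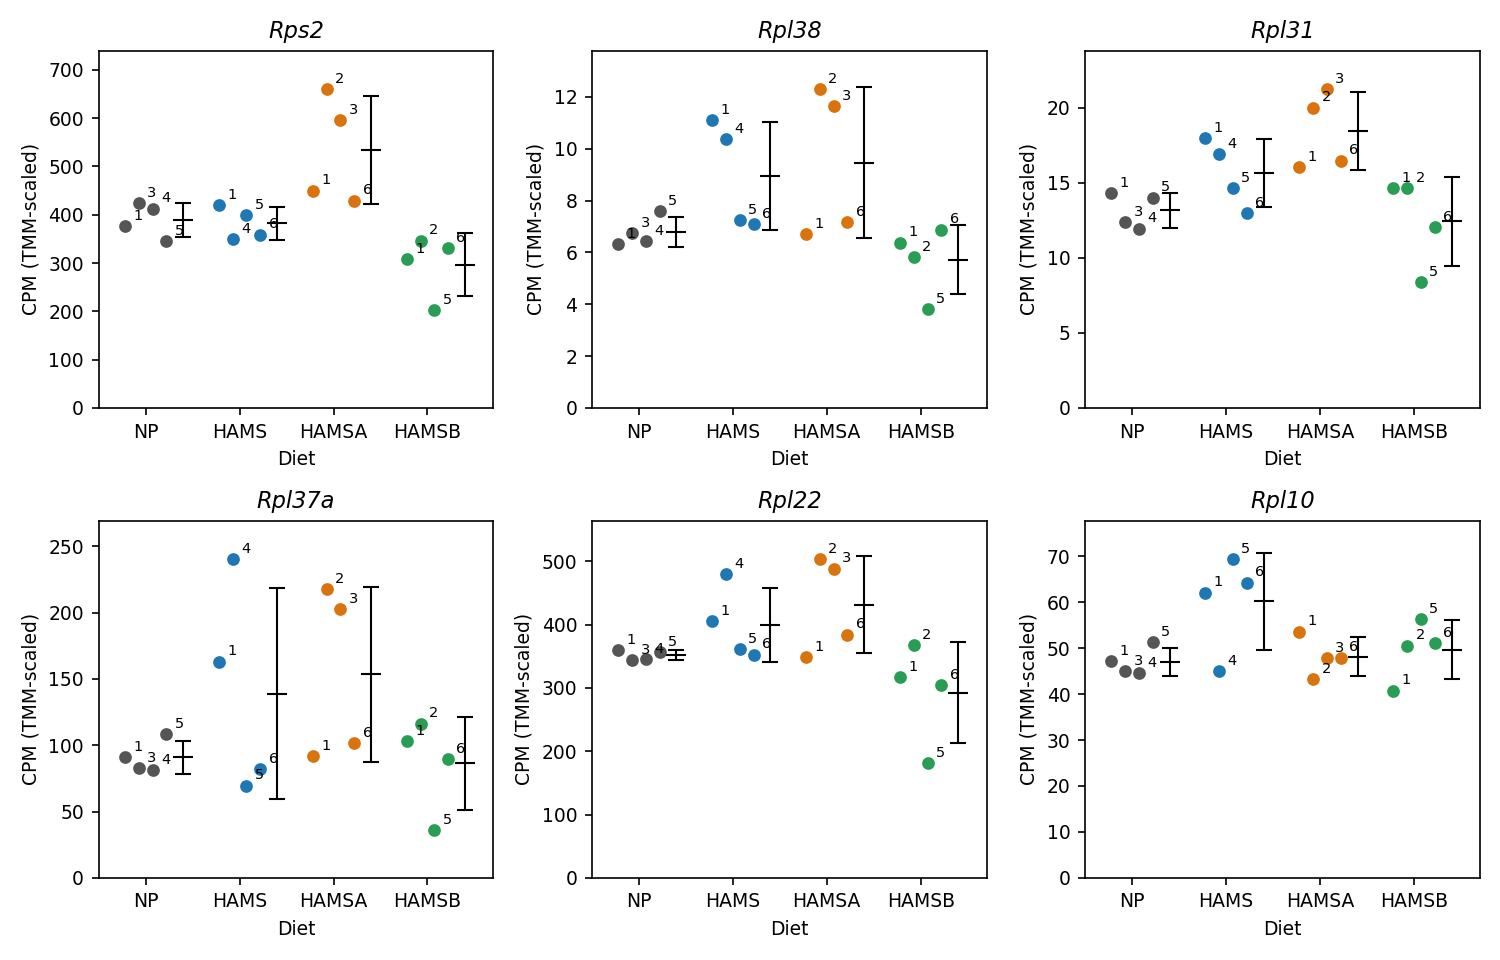
CPM of 6 members in each library, by diet, with the label number beside each point and the mean and SD of 4 libraries as bars. All 4 HAMSA libraries lie above all other libraries for Rps2, and the remaining genes overlap in most pairs of diets. Rpl10, at bottom right, has its high libraries in HAMS 1, 5 and 6.

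In HAMSB against HAMS nearly all members had lower estimates and none passed the test, with 1.68% of all genes called. The log2 fold change was below 0 in 76 of 78 members, with a median of -0.31 (a fold of 0.809), against 0.0053 over all genes. An unadjusted p under 0.05 was found in 9 members, all lower, against 14.1% of all genes, and libraries did not overlap in 3, all lower in HAMSB, against 7.3% of all genes. The members' p-values were thus no smaller than the background although their signs were nearly uniform. The 3 were Rpl38, Rpl23a and Rps2. Without HAMSB 5 the median was -0.18, with 74 of 78 below 0, and 4 members had an unadjusted p under 0.05, against 12.2% of all genes. Without HAMS 1 the median was -0.26, with 74 below 0 and 4 members under 0.05, against 13.3% of all genes. Without HAMS 4 the median was -0.22, with 76 below 0 and 9 members under 0.05, against 10.7% of all genes.

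Rpl38, a large subunit protein known for its part in translating Hox mRNAs, had the smallest p of the members in HAMSB against HAMS. It had 6.38, 5.81, 3.82 and 6.88 CPM in HAMSB 1, 2, 5 and 6 against 11.1, 10.4, 7.25 and 7.11 CPM in HAMS 1, 4, 5 and 6. The groups lay apart by a narrow gap, with a log2 fold change of -0.64 (SE 0.231; edgeR adjusted p = 0.217). Rps23, which helps to monitor the accuracy of decoding, had 6.82, 8.81, 6.03 and 5.80 CPM in HAMSB and 11.6, 8.65, 13.3 and 8.11 CPM in HAMS in the same library orders. Its groups overlapped in 1 library, HAMSB 2 (log2 fold change -0.60, SE 0.220; edgeR adjusted p = 0.223).

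Rpl37a, a small zinc-finger protein of the large subunit, had the lowest log2 fold change in HAMSB against HAMS and the largest spread within diets of all members, 0.66 on the log2 scale, ahead of Rplp1 (0.53) and Rps21 (0.51). It had 103, 116, 36.1 and 89.5 CPM in HAMSB 1, 2, 5 and 6 and 163, 240, 69.6 and 82.1 CPM in HAMS 1, 4, 5 and 6. The groups overlapped, and the difference of -0.69 carried an SE of 0.399 (edgeR adjusted p = 0.474). Rpl3l, counted at 0.175 to 0.763 CPM, had the highest estimate, 0.11 (SE 0.381), and its sign turned in 3 of 8 omissions.

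HAMSA against HAMS showed small and mixed estimates. No member passed, nor did any other gene (0% of all genes by edgeR, with 11.7% of all genes at an unadjusted p under 0.05, and 103 genes by DESeq2). The log2 fold change was above 0 in 60 of 78 members, with a median of 0.10. An unadjusted p under 0.05 was found in 4 members, 2 in each direction. Libraries did not overlap in 1 member, Rps2, higher in HAMSA (log2 fold change 0.48, SE 0.165; edgeR adjusted p = 0.324), against 4.01% of all genes. Without HAMSA 2 the median was 0.0056 and without HAMSA 3 it was 0.0051, near the median of all genes. The outside-exon read share in the model turned the median to -0.28.

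Individual members departed from this median in both directions. Rps27, a zinc-finger protein of the small subunit, had 8.03, 11.8, 7.12 and 3.43 CPM in HAMSA 1, 2, 3 and 6 against 6.96, 4.47, 3.83 and 4.81 CPM in HAMS 1, 4, 5 and 6. Library 6 of HAMSA lay below all HAMS libraries and the other 3 above them (log2 fold change 0.60, SE 0.280; edgeR adjusted p = 0.423). Rpl10, which joins the large subunit last, had 53.6, 43.2, 47.9 and 47.9 CPM in HAMSA and 62.1, 45.0, 69.4 and 64.3 CPM in HAMS. Only HAMS 4 overlapped with HAMSA (log2 fold change -0.32, SE 0.126; edgeR adjusted p = 0.380). Rpl30 followed the same order, with 32.7, 22.997, 24.6 and 29.1 CPM in HAMSA and 37.0, 25.2, 41.7 and 38.8 CPM in HAMS (log2 fold change -0.38, SE 0.165; edgeR adjusted p = 0.405).

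Against NP, the starch diets differed from each other in the sign of the median. In HAMS against NP 72 of 78 log2 fold changes were above 0, with a median of 0.22. None passed (4.33% of all genes did), 2 had an unadjusted p under 0.05 (19.3% of all genes), and libraries did not overlap in 1, Rps29 (12.6% of all genes). In HAMSA against NP 70 were above 0, with a median of 0.33. None passed (1.41% of all genes), 12 had an unadjusted p under 0.05, 11 of them higher (25.1% of all genes), and libraries did not overlap in 3, Rps2, Rpl31 and Rps20, all higher in HAMSA (16.4% of all genes). In HAMSB against NP 63 were below 0, with a median of -0.11. None passed (0.0732% of all genes), 2 had an unadjusted p under 0.05 (6.89% of all genes), and libraries did not overlap in 2, Rplp2 and Rpl3, lower in HAMSB (5.27% of all genes). These comparisons share the NP libraries. In each, the members' shares at an unadjusted p under 0.05 and without overlap lay below the background. At the adjusted threshold, 0 of 78 members says little where as few as 0.0732% or 1.41% of all genes passed. Without HAMSB 5 the median of HAMSB against NP turned to 0.053, with 48 members above 0, and without HAMS 4 that of HAMS against NP was 0.084. In HAMSA against NP the members with an unadjusted p under 0.05 numbered 1 without HAMSA 2 (15.9% of all genes), 7 without HAMSA 3 (19.6%) and 28 without HAMSB 5 (26.9%).

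**Figure D4:**
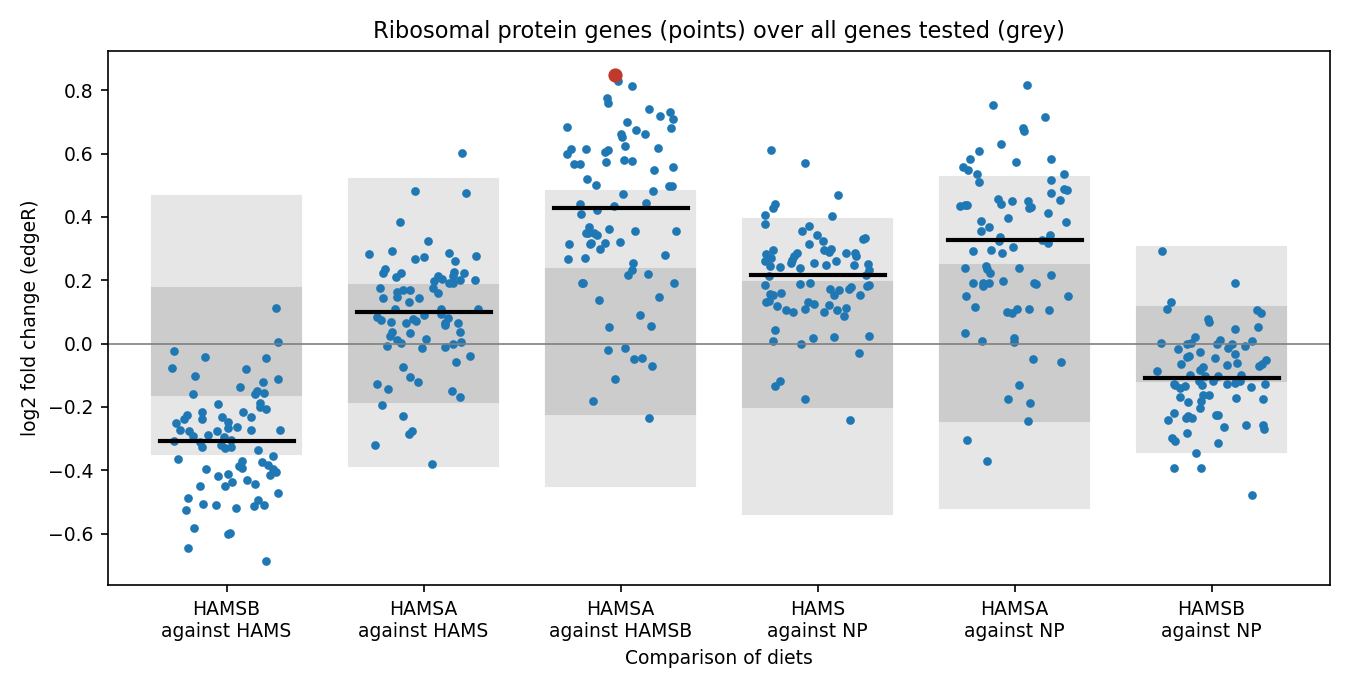
The log2 fold changes of the 78 tested members (points) in the 6 comparisons of diets, with their median as a black line. Grey boxes hold the central 80% (light) and 50% (dark) of all 15021 genes, and the red point is Rps2 in HAMSA against HAMSB, the member past the threshold. The points lie mostly below 0 in HAMSB against HAMS and above 0 in HAMSA against HAMSB.

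Named members in the comparisons with NP had groups that mostly overlapped. Rpl10 had 47.1, 45.1, 44.7 and 51.3 CPM in NP 1, 3, 4 and 5, below HAMS 1, 5 and 6 and with HAMS 4 inside the NP range (log2 fold change 0.36, SE 0.126; edgeR adjusted p = 0.128). Without HAMS 4 it passed the test (log2 fold change 0.46, edgeR adjusted p = 0.0381). Rps27a, which is made as a fusion with ubiquitin, had 20.2, 19.9, 20.1 and 24.02 CPM in NP and 29.8, 21.01, 26.6 and 26.04 CPM in HAMS (log2 fold change 0.29, SE 0.126; edgeR adjusted p = 0.213). NP 5 lay inside the HAMS range. Rps27 in HAMSA against NP, where its NP levels were 3.59, 4.67, 4.12 and 4.92 CPM, had the highest estimate of that comparison, 0.82 (SE 0.280; edgeR adjusted p = 0.108). DESeq2 called it, as the only member in HAMSA against NP (8.62% of all genes by that tool), and edgeR called it without HAMSA 6 (1.05, adjusted p = 0.0389).

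The remaining extremes came from members counted low, apart from Rps2. Rps13 had 8.84, 10.2, 11.9 and 6.93 CPM in HAMSA 1, 2, 3 and 6 and 10.9, 13.1, 12.4 and 12.5 CPM in NP (log2 fold change -0.37, SE 0.190; edgeR adjusted p = 0.232). In HAMSB against NP the lowest was Rps23 (-0.48, SE 0.219; edgeR adjusted p = 0.711), followed by Rps2, which had the smallest p (-0.39, SE 0.164; edgeR adjusted p = 0.630). The highest was Rps29 (0.29, SE 0.216; edgeR adjusted p = 0.934), at 3.56 to 4.97 CPM in NP and 4.07 to 6.16 CPM in HAMSB. None of these passed.

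The sign of the median against NP differed between sets of library numbers. Among libraries numbered 1 to 4 the members' median was 0.47 in HAMS against NP (2 libraries against 3) and 0.48 in HAMSA against NP (3 against 3). There 15 and 33 members passed, all higher, 19.2% and 42.3% of the 78, against 8.14% and 17.6% of all genes. The members that passed included the stalk gene Rplp1 (log2 fold changes 0.86 and 0.93) and Rpl37a (1.24 and 1.01). That set holds the high pairs seen in the shares, HAMS 1 and 4 and HAMSA 2 and 3, and leaves out NP 5. The low HAMS pair, HAMS 5 and 6, falls in the other set. The number sets thus cannot be told apart from this split into high and low libraries. Among libraries numbered 5 and 6, which hold 1 library of NP and 1 of HAMSA, each assumed to vary like the rest, the medians were -0.24 and -0.14. The NP library there, NP 5, had the highest member share of the NP libraries, so these values compare with that library alone. No member passed there, and 0.241% and 0.202% of all genes did. In HAMSB against NP the medians were 0.15 and -0.49. The labels do not say what the numbers stand for. Between starch diets the medians in the 2 sets were -0.36 and -0.28 in HAMSB against HAMS, and 0.37 and 0.40 in HAMSA against HAMSB, where the second set has 1 HAMSA library. In HAMSA against HAMS they were 0.015, close to the 0.0075 of all genes and with 41 members above 0 and 37 below, and 0.14.

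Members differed in how closely they followed each other. Likeness was measured as the Pearson correlation of a member's log2 CPM with the median of the other members over 16 libraries, after the mean of each diet was removed. All points share libraries, depth and scaling. The median likeness was 0.92, and 45 of 78 members were above 0.9, led by Rps15 (0.997), Rpl8 (0.996) and Rpl26 (0.995). Rps15 had 946 to 1230.0 CPM in NP, 877 to 1763 in HAMS, 1038 to 2190.2 in HAMSA and 475 to 1288 in HAMSB, and in HAMS and HAMSA its libraries fell into the pairs seen in the shares. Without HAMSB 5 the median likeness was 0.90 and 39 members were above 0.9.

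At the other end, 19 members had a likeness below 0.5, of which 10 were below 0. The lowest were the row named Rpl24 (-0.72), whose identifier is that of Zbtb11, Rpl10 (-0.59) and Rpl30 (-0.52), then Rpl21 (-0.34) and Rpl5 (-0.31). In HAMSA 2 and 3, where most members were highest, the row named Rpl24 had 49.9 and 32.9 CPM against 70.0 and 72.4 CPM in HAMSA 1 and 6. Of the 10, 9 were also below 0 without HAMSB 5.

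The members with a likeness below 0.5 were all counted low. All 19 had 2.75 to 34.2 CPM per kilobase of exon, with a median of 8.37, against a median of 127 for the other 59. The 59 ranged from 0.306 to 1917 CPM per kilobase, and 41 of them, but none of the 19, lay above 50. Levels of the 19 and the 59 thus overlapped at the low end. Rpl31 and Rpl38, both of the 59, had 8.97 and 14.3 CPM per kilobase, each with a likeness of 0.92. The part of the level in likeness was not tested. The median share of coding 50-base words found in other genes was 49.4% in the 19 and 34.5% in the 59. Of the words found in no other gene, a median of 74.6% in the 19 lay only in transcripts not annotated as coding, such as those with a retained intron, against 52.2% in the 59. Across 78 members likeness had a Spearman correlation of -0.30 with the share of coding 50-base words found elsewhere. Whether the remaining counts of such members come from their coding mRNA was not tested.

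**Figure D5:**
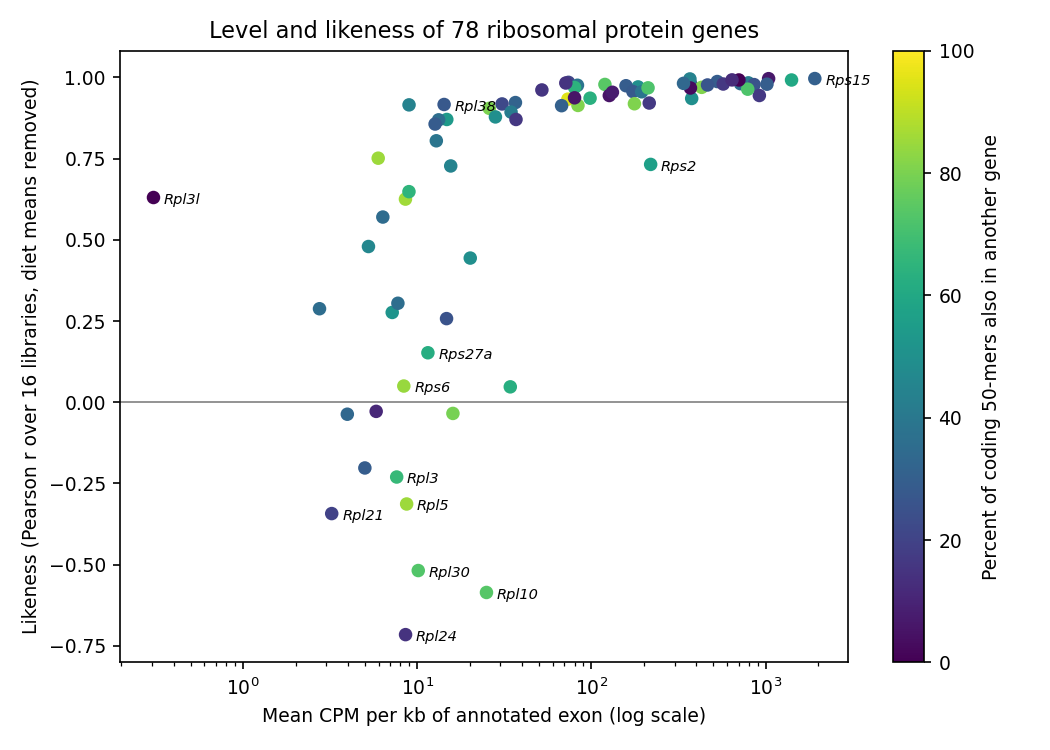
Likeness of each of the 78 tested members to the others (Pearson r over 16 libraries with diet means removed) against its mean CPM per kilobase of exon on a log scale, coloured by the percent of its coding 50-base words that also occur in another gene. All 19 members under 0.5 lie at or below 34.2 CPM per kilobase. Rps2, at 219 CPM per kilobase, has a likeness of 0.73.

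Ribosomal proteins named outside the rule had medians of the same sign as the members between starch diets. The 7 genes of this list found in the table, among them Fau, Rps3a1 and Gnb2l1, had estimates below 0 in HAMSB against HAMS (median -0.38) and above 0 in HAMSA against HAMSB (median 0.46), and none passed.

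The machinery around the ribosome gave few calls. None of 6 elongation factors and none of 34 initiation factors passed in any comparison. In HAMSB against HAMS all 6 elongation factors had estimates below 0 (median -0.27), and so had 30 of the initiation factors (median -0.15). The elongation factor with the smallest p there was Eef1d (-0.33, SE 0.211), and among initiation factors it was Eif5b, which joins the subunits (-0.34, SE 0.0834; edgeR adjusted p = 0.0542). Of 42 ribosome biogenesis genes 35 had estimates below 0 in that comparison and none passed. In HAMSA against HAMSB Lyar, a nucleolar factor of this list, passed (0.51, SE 0.112; edgeR adjusted p = 0.0452). None of 12 RNA polymerase I genes passed in any comparison, and Pdcd2l, of 7 chaperones that escort ribosomal proteins, was lower in HAMS than in NP (-0.41, SE 0.0951; edgeR adjusted p = 0.0242).

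Some genes that act on TOP mRNAs or mTORC1 passed the test. Ddit4, a stress-induced inhibitor of mTORC1, had 270.1 ± 11.8 CPM in HAMS, 159 ± 49.3 in NP, 134 ± 45.0 in HAMSA and 56.9 ± 11.7 in HAMSB (SD, n = 4 each). It was lower in HAMSB than in HAMS (log2 fold change -2.25, SE 0.248; edgeR adjusted p = 0.00031), than in NP (-1.48, adjusted p = 0.0390) and than in HAMSA (1.23 in HAMSA against HAMSB, adjusted p = 0.0268). Sesn1, a sestrin that restrains mTORC1, fell by 0.71 in HAMSB against HAMS (SE 0.164; edgeR adjusted p = 0.0400). Eif4ebp1, a repressor of cap-dependent translation that mTORC1 inactivates, was higher in HAMSA than in NP (0.71, SE 0.169; edgeR adjusted p = 0.04995). No other of the 17 genes listed for mTORC1 and TOP regulation passed in any comparison, and the list's median in HAMSB against HAMS was 0.013. Of 9 other mRNAs with a TOP motif, Nap1l1 rose in HAMS against NP (0.48, edgeR adjusted p = 0.00983) and in HAMSA against NP (0.44, edgeR adjusted p = 0.0395).

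Nuclear genes for mitochondrial proteins had medians of the same sign as the members in the comparisons between starch diets. Of 81 tested nuclear genes of oxidative phosphorylation 75 had estimates below 0 in HAMSB against HAMS (median -0.29) and 76 above 0 in HAMSA against HAMSB (median 0.40), and none passed. Of 75 tested mitochondrial ribosomal protein genes 64 were below 0 in HAMSB against HAMS (median -0.15), and Mrps6 (-0.92, edgeR adjusted p = 0.0232) and Mrps7 (-0.62, edgeR adjusted p = 0.0298) fell. Both rose in HAMS against NP, Mrps6 by 1.01 and Mrps7 by 0.53, as did Mrpl38 (0.45) and Mrpl50 (0.40). These were 2 of the 75 in HAMSB against HAMS, where 1.68% of all genes passed. In HAMS against NP they were 4 of the 75, where 4.33% of all genes passed. The B cell markers had medians between -0.15 and 0.05 in all 6 comparisons. Of their 13 tested rows, 1 passed in HAMS against NP and 1 in HAMSA against NP, each lower than in NP. Of all genes 4.33% and 1.41% passed there, and no B cell marker passed in the other comparisons.

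Markers of other cells differed between the same diets. Summed erythroid markers (13 in the table, 12 tested) ranged from 117 to 203 CPM in HAMS, 610 to 6570 in HAMSA, 101 to 1677 in HAMSB and 128 to 1551 in NP. Summed T cell markers (14) ranged from 78.2 to 209 CPM in HAMS, 135 to 329 in HAMSA, 121 to 403 in HAMSB and 84.6 to 131 in NP. Both lists had all their tested genes above 0 in HAMSB against HAMS and in HAMSA against HAMS, and none of these genes passed there. In HAMSA against HAMSB, where Rps2 passed, all tested erythroid (12), macrophage (11) and neutrophil (12) markers had estimates above 0, with medians of 0.89, 0.64 and 0.43, and of these macrophage, erythroid and neutrophil genes none passed. There 8 of 14 T cell and 7 of 10 NK cell markers were below 0, with medians of -0.11 and -0.22. Dendritic cell, platelet and plasma cell markers were above 0 in 6 of 10, 8 of 10 and 6 of 7. Macrophage markers (11) ranged from 110.4 to 244 CPM in HAMS, 221 to 399 in HAMSA, 129 to 394 in HAMSB and 237 to 554 in NP. All 11 had estimates below 0 in HAMS against NP (median -2.44), and 9 of them passed the test, against 4.33% of all genes. Summed neutrophil markers ranged from 6.02 to 109 CPM in HAMS, 75.5 to 314 in HAMSA, 42.2 to 249.4 in HAMSB and 9.72 to 63.7 in NP, and NK cell markers from 12.5 to 21.2, 16.05 to 40.4, 13.8 to 69.2 and 12.8 to 19.4 CPM. Dendritic cell, plasma cell and platelet markers ranged from 54.7 to 144, 636 to 964 and 223 to 774 CPM over all libraries. Of the 20 defining markers in the table, Elane of neutrophils was at 0 in 2 libraries and the other 19 were detected in all. The part of these cells in the members' values was not tested.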

How the data were processed

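The tools named are STAR, featureCounts, Subread, edgeR and limma, per the submitters' processing notes. Their versions, and the genome build and annotation, are not given in the sources used here. Deposited by the authors were unscaled read counts per gene for reverse-stranded libraries, with a summary of uncounted reads as counts. Here genes were kept by edgeR's filter (minimum count 10, 15021 genes), scaled by TMM and fitted with 1 mean per diet over 16 libraries (12 residual degrees of freedom) in R 4.3.3 with edgeR 4.0.16. The quasi-likelihood F-test was adjusted by Benjamini-Hochberg over all genes (threshold 0.05). CPM were TMM-scaled, except those of Pax5, Cd3e and Alas2, which were scaled to library totals alone. DESeq2 1.42.0 and limma 3.58.1 (voom) were alternatives, with others for scaling, filter, covariate and libraries. The fit was tested on simulated counts. Positions and exon lengths came from GENCODE M21 (37607 identifiers matched), which may not be the authors' annotation. The members and lists were chosen with earlier results of these data known.

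Members were named when they passed a test, had 1 of the 2 smallest p or the highest or lowest fold change of a comparison, had 1 of the 3 lowest or highest likeness values or 1 of the 3 largest spreads, were listed for their role, or failed the filter. Members without overlap and those called by DESeq2 or in a subset of libraries were named after their values were seen. Genes of related lists were named when they passed, or had the smallest p of their list in HAMSB or HAMSA against HAMS.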

Additional observations from a re-analysis of the deposited data

Results flagged for a closer look

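In each diet the highest and lowest of the 4 libraries were set against the others by Dixon's gap test at 95%, for the shares and for the members named for a comparison. Of 72 groups examined 5 had a gap past the critical value, and chance flags about 1 in 20. In NP 5 the small subunit genes took 1.501% of the counts, against 1.27% to 1.31% in the other NP libraries, and Rps27a had 24.02 CPM, against 19.9 to 20.2 CPM. The small over the large subunit share was 1.03 in HAMS 1 (0.998 to 1.003 in the others) and 0.943 in HAMSB 5 (1.01 to 1.02 in the others). Rpl30 had 23.8 CPM in HAMSB 1, against 32.5 to 34.2 CPM in the other HAMSB libraries.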

How the results depend on the processing

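DESeq2 called 4 members in HAMSA against HAMSB, against 3.99% of all genes, and 1 in HAMSA against NP, against 8.62%. In the test for any difference it called 3 members, against 12.6% of all genes. With only the 2 diets compared, 0 members passed in HAMSA against HAMSB. Whether the labels' replicate numbers pair the libraries was not tested, because pairs with unlike numbers were not compared. With diet means removed, same-numbered libraries correlated over all genes at 0.343, 0.248 and 0.0671 in HAMSB against HAMS. The values were -0.0606, 0.491 and 0.275 in HAMSA against HAMSB and -0.0703, 0.0201 and -0.0053 in HAMS against NP. Over the members alone they were 0.333, 0.720 and -0.157 in HAMSB against HAMS and -0.678, 0.679 and 0.104 in HAMSA against HAMSB. In HAMS against NP the members gave 0.0689, -0.343 and -0.439. With the replicate number as a block, 0 members passed in HAMSA against HAMSB (Rps2 0.74, adjusted p = 0.0869) and 0 in the test for any difference, all genes called there fell from 568 to 264, and Rpl3l in HAMSB against HAMS was -0.0093. With the outside-exon read share in the model, 0 members passed in HAMSA against HAMSB, 1 in HAMS against NP (Rpl10) and 0 in the test for any difference. The medians were then -0.28 in HAMSA against HAMS, -0.048 in HAMSA against HAMSB and -0.23 in HAMSA against NP, and the row named Rpl24 was 0.13 in HAMSA against HAMSB. Among libraries numbered 1 to 4, 0 members passed in HAMSA against HAMSB, 15 in HAMS against NP, 33 in HAMSA against NP and 9 in the test for any difference, where 1266 of 15350 genes passed. Rpl3l was then -0.19 in HAMSB against HAMS and 0.20 in HAMS against NP. Among libraries numbered 5 and 6, 0 members passed in HAMSA against HAMSB and in the test for any difference (109 of 15325 genes), and the medians were -0.24, -0.14 and -0.49 in HAMS, HAMSA and HAMSB against NP. There the row named Rpl24 was 0.051 in HAMSA against HAMSB, Rps27 -0.33 in HAMSA against HAMS and -0.52 in HAMSA against NP, Rpl37a -0.52 in HAMS against NP, and the share of counts in NP 2.97% (1 library). Leaving out each library in turn, members called ranged from 0 to 2 in the test for any difference and from 0 to 1 in HAMSA against HAMSB, HAMS against NP and HAMSA against NP. Rpl3l ranged from -0.15 to 0.34 in HAMSB against HAMS and from -0.48 to 0.020 in HAMS against NP. The cause was not tested.

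All genes called by edgeR numbered 252, 0, 117, 650, 212 and 11 in HAMSB against HAMS, HAMSA against HAMS, HAMSA against HAMSB, HAMS against NP, HAMSA against NP and HAMSB against NP. DESeq2 called 603, 103, 600, 1264, 1295 and 124, and 1894 in the test for any difference. Over the other settings and omissions these counts ranged from 74 to 402, 0 to 29, 0 to 187, 37 to 1250, 0 to 2694, 0 to 94 and 109 to 1266. With library totals in place of TMM, 142 genes were higher and 141 lower in HAMSB against HAMS (65 and 187 with TMM), 225 and 573 in HAMS against NP (341 and 309), 65 and 33 in HAMSA against HAMSB (88 and 29) and 84 and 260 in HAMSA against NP (91 and 121). The medians of the members kept their signs under both other scalings, RLE and library totals. HAMSA libraries were the shallowest, and how far reads lost to copies lowered members was not tested.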
